A study of Mus musculus with 12 samples.

Results

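The genes described here encode the enzymes that make purine, pyrimidine and deoxynucleotide building blocks, or that return bases and nucleosides to the nucleotide pool. They were chosen by a list of 37 gene symbols, with the condition that the mean over the 12 libraries was at least 1 FPKM, fragments per kilobase of transcript, scaled to a fixed number of mapped fragments. All 37 symbols were in the table and all 37 met the condition, out of 10305 genes that met it among 23234 genes in the table. The lowest means were those of Dctd at 1.14 FPKM and Pfas at 2.39 FPKM, and no listed gene fell below the limit. In the vehicle libraries the most abundant were Nme2, at a mean of 528 FPKM, and Aprt, at 348 FPKM.

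Total RNA was sequenced from primary mouse acute myeloid leukaemia cells that carry NRASG12V, an activated form of the signalling protein NRAS, together with the leukaemia fusion Mll-AF9. All 4 groups share that genotype, the background (FVB/n X C57/BL/6J) F1 and a medium of RPMI with 10% FBS and the growth factor GM-CSF at 1 ng/ml. For 24 h the cells received PD325901 at 20 µM, RAD001 at 26 µM, GDC0941 at 20 µM or the solvent DMSO, with 3 libraries in each group. PD325901 inhibits the kinase MEK, which lies below RAS in the ERK pathway, RAD001 (everolimus) inhibits mTOR, and GDC0941 (pictilisib) inhibits PI3-kinase. Each inhibitor was used at 1 dose and 1 time, and the doses are not matched between all of them. The sources used here give neither the promoter that drives NRASG12V nor the number of leukaemias, animals or cultures behind the libraries, so the p-values below measure only the spread between these samples, which may be technical.

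Purine synthesis builds the ring step by step on a sugar phosphate, phosphoribosyl pyrophosphate, up to IMP, from which separate branches lead to AMP and GMP. Pyrimidine synthesis first makes the ring and then joins it to the same sugar phosphate to give UMP, which is turned into UTP and CTP. Ribonucleotide reductase removes the sugar's hydroxyl group to give deoxynucleotides for DNA, thymidylate synthase makes the thymine nucleotide, and salvage enzymes recycle ready-made bases and nucleosides. Proliferating blood cells draw on both routes, and drugs that block IMP dehydrogenase, dihydroorotate dehydrogenase, thymidylate synthase or ribonucleotide reductase act on dividing leukocytes.

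Relative depth, taken from the spacing of the lowest values, ranged between 0.846 and 1.21 times that of DMSO replicate 1, and the number of reads behind a value is unknown. Replicates 2 and 3 of a group agreed more closely (Spearman rho across genes 0.987 to 0.996) than replicate 1 did with either (0.966 to 0.985). Replicate 1 of RAD001 and of GDC0941 held more RNA of S phase genes: the summed level of 21 replication genes outside the list was 53.4% of the DMSO mean in RAD001 replicate 1 against 40.2% and 37.5% in the other RAD001 libraries, and 75.2% in GDC0941 replicate 1 against 42.2% and 45.4%. In PD325901 libraries this sum was 37.8% to 40.1%, and in DMSO libraries 90.2% to 106%. Calls that changed without replicate 1 of every group are given below. Of 14 markers of myeloid leukaemia cells 13 were in the table and 12 reached the limit, while Lyz2, the macrophage lysozyme gene, was listed at 0 in every library. The 13 summed to 1268 to 1293 FPKM with PD325901 and 2135 to 2194 with RAD001. With GDC0941 they summed to 1286 to 1405 FPKM, and with DMSO to 1069 to 1071. Log2 changes of the 12 against DMSO ran from -1.94 to 1.67 with PD325901, -4.24 to 2.14 with RAD001 and -3.26 to 0.67 with GDC0941. The summed B cell markers (5 of 6 in the table, Pax5 listed at 0 throughout) lay at 6.76 to 8.13 FPKM with PD325901, 0.961 to 2.13 with RAD001, 0.643 to 2.23 with GDC0941 and 4.59 to 5.96 with DMSO. The megakaryocyte markers (5 of 5 in the table) summed to 10.9 to 35.6, 215 to 278, 3.72 to 4.76 and 77.1 to 133 FPKM in the same order of groups. T and NK cell markers (8 of 8) summed to 5.11 to 9.97 FPKM with PD325901 and at most 3.66, 1.73 and 5.65 FPKM with RAD001, GDC0941 and DMSO, erythroid markers (7 of 7) to at most 4.15 FPKM in any library, and stromal and endothelial markers (7 of 7) to 7.65 to 11.3, 7.05 to 8.55, 1.77 to 2.57 and 12.7 to 17 FPKM. In the B cell, megakaryocyte, T and NK cell, and stromal and endothelial lists 1 gene each reached a mean of 1 FPKM, and in the erythroid list 0 did, so these sums rest on few genes. Their part in the results was not tested. In RNA from whole cultures, fewer cells of a type and less RNA per cell cannot be told apart.

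Promoter sequences in RefSeq (build GRCm38.p6, 250 bases before to 50 after the start) were matched by symbol for 34 of the 37 genes, and Pfas, Dhodh and Rrm2b had no entry. The windows were searched for CACGTG, the E-box word bound by MYC and its relatives, and on both strands for words of the kind bound by E2F factors (TTCGCGC, the variant TTGGCGC, the variant TTCCCGC and the variant TTGCCGC) and for CCAAT. The E-box word stood in 6 of 34 genes (17.6%), against 12.5% of the genes whose mean reached 1 FPKM and 8.09% of all genes with a promoter. An E2F word stood in 11 (32.4%), against 20.1% and 10.9%, and CCAAT in 12 (35.3%), against 43.3% and 41.1%. The median share of G and C letters was 61.5% in these genes' windows, 60.7% for genes reaching 1 FPKM and 52.7% for all promoters. The part of base composition in the motif shares was not tested. Among the purine ring and deoxynucleotide genes, E-boxes were present in Paics, Atic, Dtymk and Tyms, and E2F words in Ppat, Atic, Rrm1, Rrm2 and Dtymk. In the window of Impdh2 the E2F word TTGGCGC overlapped a CCAAT word on the other strand, so those letters were counted under both. A match describes the letters only and is not a binding site.

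Ppat and Paics, which encode enzymes of the same pathway, lie on opposite strands of chromosome 5 with starts 276 bases apart, and their promoter windows do not overlap. By these coordinates each gene is read toward the other's start, so the stretch between the starts belongs to both. The strand setting is unknown, so the split of reads there is uncertain. Both windows are shown with Atic, a purine gene that moved in opposite directions between the inhibitors, and with Rrm1, which was lower with all 3. Capitals mark E-box and E2F words, and positions count from the base that follows the first 250 letters. The Ppat window is chr5:76951529-76951828 on the minus strand with 3 E2F words (-211, -158 and -50), and the Paics window is chr5:76951052-76951351 on the plus strand with 1 E-box (-203). The Atic window, chr1:71556906-71557205 on the plus strand, holds an E2F word (-160) and an E-box (-7), and the Rrm1 window, chr7:102441445-102441744 on the plus strand, holds an E2F word (-67).
Ppat: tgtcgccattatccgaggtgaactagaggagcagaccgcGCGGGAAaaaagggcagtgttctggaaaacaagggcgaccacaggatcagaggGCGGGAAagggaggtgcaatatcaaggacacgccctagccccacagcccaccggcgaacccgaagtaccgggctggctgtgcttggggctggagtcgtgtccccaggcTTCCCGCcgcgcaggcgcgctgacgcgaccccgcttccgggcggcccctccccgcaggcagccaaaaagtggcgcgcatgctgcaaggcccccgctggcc
Paics: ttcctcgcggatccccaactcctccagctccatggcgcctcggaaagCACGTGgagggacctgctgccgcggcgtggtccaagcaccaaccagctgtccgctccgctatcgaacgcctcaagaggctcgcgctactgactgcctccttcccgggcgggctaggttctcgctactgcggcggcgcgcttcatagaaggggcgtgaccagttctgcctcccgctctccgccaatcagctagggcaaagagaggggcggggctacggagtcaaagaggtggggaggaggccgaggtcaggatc
Atic: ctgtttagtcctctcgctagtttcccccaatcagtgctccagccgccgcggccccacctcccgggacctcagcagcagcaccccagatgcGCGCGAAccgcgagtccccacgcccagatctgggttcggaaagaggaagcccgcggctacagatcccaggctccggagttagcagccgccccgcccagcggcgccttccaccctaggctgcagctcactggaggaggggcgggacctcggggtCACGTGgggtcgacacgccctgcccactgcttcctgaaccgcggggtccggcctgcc
Rrm1: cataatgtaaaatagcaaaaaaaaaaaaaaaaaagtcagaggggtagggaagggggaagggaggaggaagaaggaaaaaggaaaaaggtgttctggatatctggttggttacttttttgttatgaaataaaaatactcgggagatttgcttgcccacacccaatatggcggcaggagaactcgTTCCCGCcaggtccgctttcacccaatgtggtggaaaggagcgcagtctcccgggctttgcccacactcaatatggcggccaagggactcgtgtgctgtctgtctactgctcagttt

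Across the 37 genes, PD325901 gave the most lower values. Against DMSO, 28 genes were lower and 3 higher with PD325901 (background over all genes tested: 28.2% lower and 18.4% higher), with a median log2 change of -0.79 over the 37 genes and -0.06 over all genes. With RAD001, 18 were lower and 1 higher (background 15.9% and 15.4%), with a median of -0.42 against 0.00 over all genes. With GDC0941, 7 were lower and 2 higher (background 12.7% and 11.6%), with a median of -0.05 against 0.02. A log2 change here is a difference of log2(FPKM + 1) between group means, so it understates the change of genes with low values, and a gene was called when limma's two-sided p, adjusted by the Benjamini-Hochberg method over the 10305 genes, was under 0.05. With a pseudocount of 5 FPKM in place of 1, the PD325901 changes of 9 genes shrank by over 1.5 times and were still called: -0.71 for Prps1, -0.57 for Ppat, -0.27 for Pfas, -1.32 for Impdh1, -0.72 for Cad, -0.28 for Dhodh, -1.04 for Ctps, -0.44 for Tyms and -0.36 for Dctd. The RAD001 changes of Ppat, Pfas, Dhodh, Ctps, Tyms, Dctd and Dut (-0.26, -0.13, -0.33, -0.33, -0.36, -0.17 and -1.06) and the GDC0941 change of Tyms (-0.39) did the same. The 3 comparisons share the DMSO libraries. At least 1 unit of log2 was lost by 11 genes with PD325901, 4 with RAD001 and 4 with GDC0941. The share of all genes that lost as much is not given here, so these counts have no background. In PD325901 cells the lower genes came from every stage of the pathway, whereas with GDC0941 all but Umps act in the making or salvage of deoxynucleotides. The GDC0941 part of this contrast did not hold without replicate 1 of every group. Impdh1, Impdh2, Gmps, Adssl1, Dhodh and Ctps were then also lower with GDC0941 (limma adjusted p at most 0.0445).

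**Figure D1:**
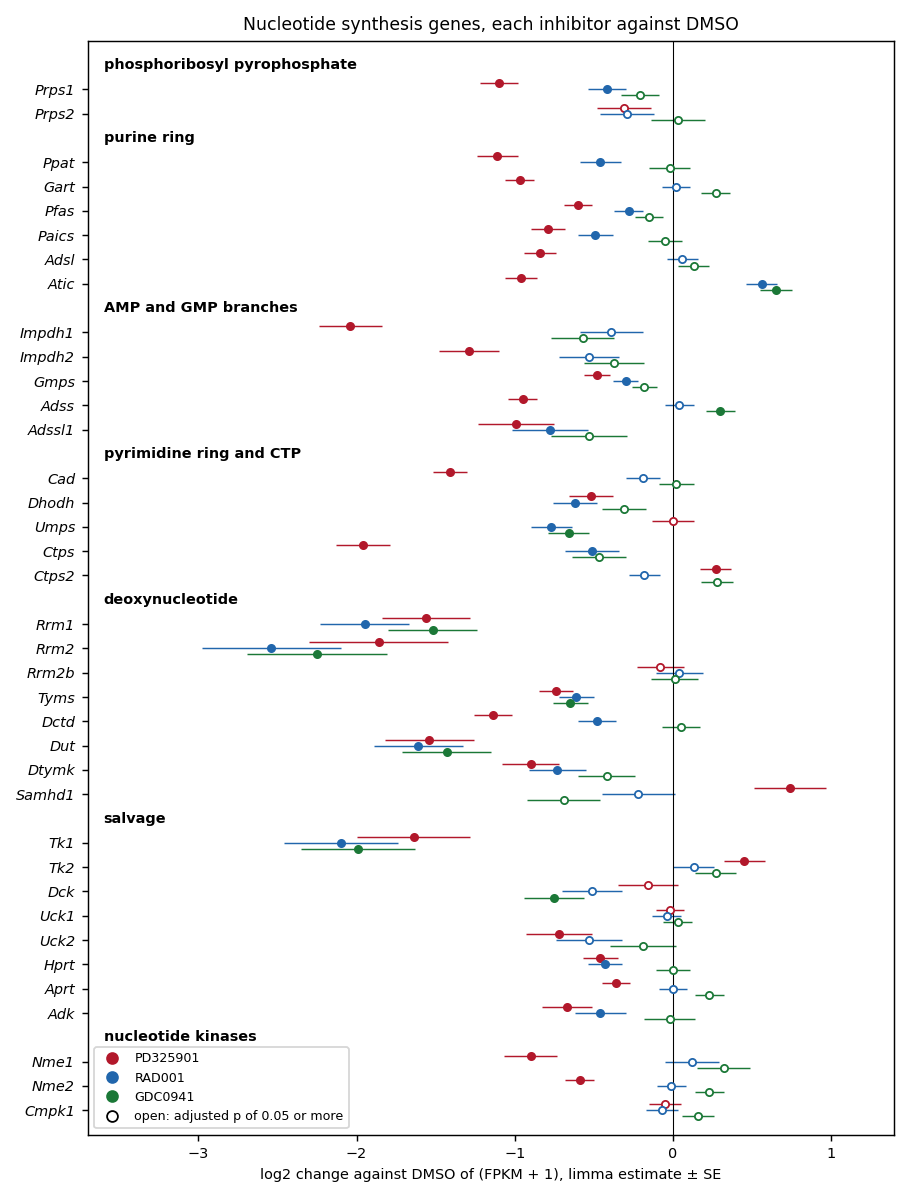
Log2 change of (FPKM + 1) against DMSO for the 37 genes, grouped by role, with points for the limma estimate, bars for its SE, and filled points for an adjusted p under 0.05 (PD325901 red, RAD001 blue, GDC0941 green). The red points of the purine ring lie between -0.60 and -1.11, while for Rrm1, Rrm2, Dut and Tk1 all 3 points lie below -1.

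Phosphoribosyl pyrophosphate, the shared sugar donor, is made by Prps1 and Prps2. Prps1 stood at 4.27, 3.42 and 4.62 FPKM with PD325901, 8.53, 6.33 and 6.71 FPKM with RAD001 and 8.38, 8.69 and 8.17 FPKM with GDC0941. DMSO libraries held 8.83, 10.2 and 10.6 FPKM. Every PD325901 library was below all the others, and the RAD001 libraries were below those of DMSO. The log2 change was -1.10 ± 0.12 SE (limma adjusted p = 4.40e-05) with PD325901, -0.42 ± 0.12 SE (limma adjusted p = 0.0222) with RAD001 and -0.21 ± 0.12 SE (limma adjusted p = 0.244) with GDC0941. The RAD001 call ended without any 1 of DMSO replicate 2 or 3 or RAD001 replicate 2 or 3 (adjusted p = 0.0747, 0.0853, 0.0939 and 0.0783 in limma). Prps2 lay at 4.35 to 5.39 FPKM with PD325901, 4.25 to 6.17 FPKM with RAD001, 4.98 to 8.46 FPKM with GDC0941 and 5.84 to 6.53 FPKM with DMSO, and its changes of -0.31, -0.29 and 0.03 were not called (limma adjusted p = 0.140, 0.199 and 0.924). Its PD325901 libraries were all below DMSO, and those of RAD001 and GDC0941 overlapped DMSO. With replicate 1 of every group left out, Prps2 was lower with PD325901 (-0.42, limma adjusted p = 0.00818) and RAD001 (-0.47, limma adjusted p = 0.00564). Prps1l3, a gene named for its likeness to Prps1, can share reads with it, so the split between them is uncertain.

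All 6 genes of the purine ring were lower with PD325901, by -0.60 to -1.11 on the log2 scale. RAD001 gave 3 lower (Ppat, Pfas and Paics) and 1 higher (Atic), and GDC0941 gave 1 higher (Atic). In shares, 100%, 50% and 0% were lower with PD325901, RAD001 and GDC0941, against 28.2%, 15.9% and 12.7% of all genes. The higher share of 16.7% with RAD001 was near that of all genes, 15.4%, and with GDC0941 16.7% stood against 11.6%. Ppat encodes the amidotransferase that commits phosphoribosyl pyrophosphate to purines, and its level was 1.99, 1.53 and 2 FPKM with PD325901, 3.91, 3.43 and 3.07 FPKM with RAD001 and 5.47, 5.51 and 4.28 FPKM with GDC0941. DMSO libraries held 4.23, 5.88 and 5.42 FPKM. PD325901 libraries were lowest without overlap, RAD001 libraries lay between them and the rest, and GDC0941 libraries overlapped DMSO. Its log2 change was -1.11 ± 0.13 SE (limma adjusted p = 7.75e-05) with PD325901, -0.46 ± 0.13 SE (limma adjusted p = 0.0226) with RAD001 and -0.02 ± 0.13 SE (limma adjusted p = 0.939) with GDC0941. The bifunctional Paics, which acts later in the route, read 23.3, 23.3 and 25.4 FPKM with PD325901, 35.3, 28.2 and 26.1 FPKM with RAD001 and 44.8, 38.2 and 38.9 FPKM with GDC0941. DMSO libraries held 37.8, 44.1 and 44.7 FPKM. RAD001 libraries lay between those of PD325901 and DMSO, and GDC0941 libraries overlapped DMSO. The changes were -0.79 ± 0.11 SE (limma adjusted p = 0.000269), -0.49 ± 0.11 SE (limma adjusted p = 0.00762) and -0.05 ± 0.11 SE (limma adjusted p = 0.772) with PD325901, RAD001 and GDC0941.

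Gart carries several early activities of the route, and it stood at 8.57, 8.38 and 8.68 FPKM with PD325901, 19.4, 17.1 and 17.4 FPKM with RAD001 and 22.7, 22 and 19.9 FPKM with GDC0941. DMSO libraries held 15.4, 19 and 18.9 FPKM. PD325901 libraries were lowest, RAD001 libraries overlapped DMSO and GDC0941 libraries were above it. The changes were -0.97 ± 0.09 SE (limma adjusted p = 1.75e-05), 0.02 ± 0.09 SE (limma adjusted p = 0.899) and 0.27 ± 0.09 SE (limma adjusted p = 0.0562) with PD325901, RAD001 and GDC0941. Adsl, which acts both in the ring and in the AMP branch, lay at 9.13 to 12.5 FPKM with PD325901, 19.7 to 23 FPKM with RAD001, 21.3 to 23.8 FPKM with GDC0941 and 19.7 to 20.9 FPKM with DMSO. It fell with PD325901 (-0.84 ± 0.10 SE (limma adjusted p = 8.81e-05)) and was not called with RAD001 (0.06, limma adjusted p = 0.678) or GDC0941 (0.13, limma adjusted p = 0.400). Pfas, the glutamine-using enzyme of the middle of the route, was the least abundant of the 6, at 1.5 to 1.75 FPKM with PD325901, 2.12 to 2.5 FPKM with RAD001, 2.36 to 2.76 FPKM with GDC0941 and 2.76 to 3.18 FPKM with DMSO, and changed by -0.60 ± 0.09 SE (limma adjusted p = 0.000391) with PD325901 and -0.28 ± 0.09 SE (limma adjusted p = 0.0416) with RAD001.

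Atic, which carries out the closing steps to IMP, was the 1 gene of the purine ring that was called in both directions. It was measured at 14.7, 14.7 and 16.9 FPKM with PD325901, 53.2, 43.9 and 41.9 FPKM with RAD001 and 49.5, 48.6 and 49.3 FPKM with GDC0941. DMSO libraries held 27.8, 32.4 and 32.6 FPKM. All PD325901 libraries were below, and all RAD001 and GDC0941 libraries above, every DMSO library. The log2 change was -0.96 ± 0.10 SE (limma adjusted p = 3.33e-05) with PD325901, 0.56 ± 0.10 SE (limma adjusted p = 0.00187) with RAD001 and 0.65 ± 0.10 SE (limma adjusted p = 0.00120) with GDC0941. Directly compared, PD325901 differed from RAD001 by -1.52 ± 0.10 SE (limma adjusted p = 8.06e-07) and from GDC0941 by -1.61 ± 0.10 SE (limma adjusted p = 6.19e-07), both in the same model. These calls held in every alternative setting, whereas with RAD001 the call of Ppat ended under quantile normalization (-0.35, limma adjusted p = 0.0610) or without DMSO replicate 2 or 3 or RAD001 replicate 2 or 3 (limma adjusted p = 0.0961, 0.0784, 0.0642 and 0.0873). The call of Pfas with RAD001 ended under quantile normalization (-0.13, limma adjusted p = 0.300) and without the same libraries (limma adjusted p = 0.120, 0.138, 0.145 and 0.1).

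From IMP the GMP branch runs through IMP dehydrogenase (Impdh1 and Impdh2) and Gmps, and the AMP branch through Adss, Adssl1 and Adsl. All 5 branch genes other than Adsl were lower with PD325901. That share of 100% stood against 28.2% of all genes. Impdh1 was at 2.5, 2.51 and 3.03 FPKM with PD325901, 13.4, 9.6 and 9.15 FPKM with RAD001 and 12.9, 7.3 and 8.11 FPKM with GDC0941. DMSO libraries held 17.1, 12.8 and 12.9 FPKM. Its PD325901 mean was 18.8% of the DMSO mean, with no overlap with any other group, and RAD001 and GDC0941 replicate 1 lay inside the DMSO range. The changes were -2.04 ± 0.20 SE (limma adjusted p = 1.91e-05) with PD325901, -0.39 ± 0.20 SE (limma adjusted p = 0.158) with RAD001 and -0.57 ± 0.20 SE (limma adjusted p = 0.0554) with GDC0941. Impdh2 read 16.6, 13.8 and 14.5 FPKM with PD325901, 35.3, 22 and 22.2 FPKM with RAD001 and 36.8, 23.6 and 28.3 FPKM with GDC0941. DMSO libraries held 32.4, 39.8 and 42 FPKM. PD325901 libraries were again lowest, and replicate 1 of RAD001 and GDC0941 stood above replicates 2 and 3. It changed by -1.29 ± 0.19 SE (limma adjusted p = 0.000345) with PD325901, while RAD001 gave -0.53 ± 0.19 SE (limma adjusted p = 0.0577) and GDC0941 -0.37 ± 0.19 SE (limma adjusted p = 0.197). With the replicate number as a block, the RAD001 difference passed (limma adjusted p = 0.0352). Without replicate 1 of every group, Impdh1 and Impdh2 were lower with RAD001 (-0.42 and -0.86, limma adjusted p = 0.00734 and 6.90e-05) and with GDC0941 (-0.67 and -0.64, limma adjusted p = 0.000604 and 0.000473).

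Gmps, the GMP synthetase gene, lay at 7.49 to 7.8 FPKM with PD325901, 8.43 to 9.36 FPKM with RAD001, 8.56 to 10.8 FPKM with GDC0941 and 10.9 to 11.3 FPKM with DMSO, with changes of -0.48 ± 0.08 SE (limma adjusted p = 0.000869) and -0.30 ± 0.08 SE (limma adjusted p = 0.0206) with PD325901 and RAD001 and an uncalled -0.18 with GDC0941 (limma adjusted p = 0.138). Without replicate 1 of every group Gmps was also lower with GDC0941 (-0.25, limma adjusted p = 0.0445). The RAD001 call of Gmps ended without DMSO replicate 1, 2 or 3 or RAD001 replicate 2 or 3 (limma adjusted p = 0.0549, 0.0515, 0.0618, 0.0642 and 0.0783). Adss, the adenylosuccinate synthase of most tissues, stood at 20.5, 24.2 and 25.1 FPKM with PD325901, 46.4, 47.2 and 46.7 FPKM with RAD001 and 62.6, 52.6 and 54.2 FPKM with GDC0941. DMSO libraries held 48, 44.4 and 44.4 FPKM. PD325901 libraries were lowest, RAD001 libraries overlapped DMSO, and GDC0941 libraries were all above DMSO. Its changes were -0.95 ± 0.09 SE (limma adjusted p = 1.73e-05) with PD325901, 0.04 ± 0.09 SE (limma adjusted p = 0.778) with RAD001 and 0.30 ± 0.09 SE (limma adjusted p = 0.0322) with GDC0941, and the GDC0941 call ended without DMSO replicate 2 or 3 or GDC0941 replicate 1 (limma adjusted p = 0.101, 0.0993 and 0.0777). Adssl1, the muscle-type copy of the enzyme, ranged over 30.3 to 37.8 FPKM with PD325901, 31.9 to 50.7 FPKM with RAD001, 35.9 to 72.2 FPKM with GDC0941 and 62.6 to 74.7 FPKM with DMSO. It changed by -0.99 ± 0.24 SE (limma adjusted p = 0.00631) and -0.78 ± 0.24 SE (limma adjusted p = 0.0300) with PD325901 and RAD001, and the RAD001 call ended without DMSO replicate 1, 2 or 3 or RAD001 replicate 2 or 3 (limma adjusted p = 0.0852, 0.0652, 0.0610, 0.0950 and 0.108). With GDC0941 it read -0.53 ± 0.24 SE (limma adjusted p = 0.139), and -0.77 without replicate 1 of every group (limma adjusted p = 3.47e-05).

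**Figure D2:**
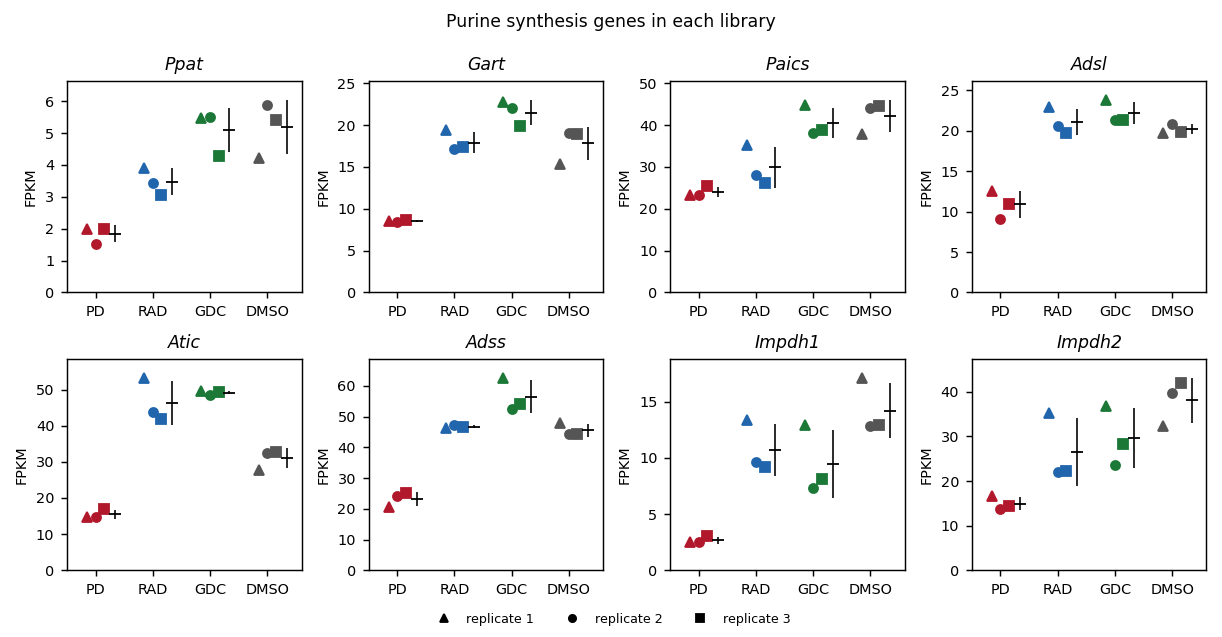
FPKM of 8 purine synthesis genes in each library (vertical axes start at 0), with groups left to right PD325901, RAD001, GDC0941 and DMSO, symbols for the replicate number, and a tick with a bar for the mean ± SD of 3 libraries. PD325901 libraries are lowest in all 8 panels, and only Atic lies above the DMSO libraries with both RAD001 and GDC0941.

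Pyrimidine genes did not move as a block. With PD325901 3 were lower (Cad, Dhodh and Ctps) and Ctps2 was higher, with RAD001 3 were lower (Dhodh, Umps and Ctps), and with GDC0941 1 was lower (Umps). In shares, 60%, 60% and 20% were lower, against 28.2%, 15.9% and 12.7% of all genes. The 20% higher with PD325901 was near the 18.4% of all genes. Cad, whose product carries the first 3 activities of the route, stood at 1.58, 1.58 and 1.6 FPKM with PD325901, 5.4, 4.78 and 4.94 FPKM with RAD001 and 7.41, 5.45 and 5.27 FPKM with GDC0941. DMSO libraries held 5.56, 6 and 6.06 FPKM. PD325901 libraries were tightly grouped far below all others, RAD001 libraries were just below DMSO, and GDC0941 libraries overlapped DMSO. The changes were -1.41 ± 0.11 SE (limma adjusted p = 4.99e-06) with PD325901, -0.19 ± 0.11 SE (limma adjusted p = 0.218) with RAD001 and 0.02 ± 0.11 SE (limma adjusted p = 0.907) with GDC0941, and the RAD001 value was -0.26 and called without replicate 1 of every group (limma adjusted p = 0.0310). Umps, which completes UMP, differed from Cad, at 11.3, 9.49 and 10.4 FPKM with PD325901, 5.65, 5.75 and 5.52 FPKM with RAD001 and 7.89, 5.17 and 5.72 FPKM with GDC0941. DMSO libraries held 9.39, 11.3 and 10.4 FPKM. Here PD325901 libraries overlapped those of DMSO, and all RAD001 and GDC0941 libraries were below every DMSO library. Umps changed by 0.00 ± 0.13 SE (limma adjusted p = 0.986) with PD325901, so neither a rise nor a fall was called, and by -0.77 ± 0.13 SE (limma adjusted p = 0.00117) with RAD001 and -0.66 ± 0.13 SE (limma adjusted p = 0.00385) with GDC0941. The difference between PD325901 and RAD001 was 0.78 ± 0.13 SE (limma adjusted p = 0.000429) for Umps and -1.22 ± 0.11 SE (limma adjusted p = 6.25e-06) for Cad, and between PD325901 and GDC0941 it was 0.66 ± 0.13 SE (limma adjusted p = 0.00116) and -1.43 ± 0.11 SE (limma adjusted p = 2.19e-06). Dhodh, the mitochondrial enzyme between them, lay at 2.43 to 3.25 FPKM with PD325901, 2.46 to 2.69 FPKM with RAD001, 2.75 to 4.27 FPKM with GDC0941 and 4.05 to 5.39 FPKM with DMSO and was called with PD325901 (-0.52 ± 0.14 SE (limma adjusted p = 0.0101)) and RAD001 (-0.62 ± 0.14 SE (limma adjusted p = 0.00671)). With GDC0941 its change of -0.31 was not called (limma adjusted p = 0.127), but it was -0.48 and called when replicate 1 of every group was left out (limma adjusted p = 0.0224).

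CTP is made from UTP by 2 synthases with similar roles. Ctps stood at 1.08, 1.32 and 1.49 FPKM with PD325901, 7.18, 4.6 and 4.33 FPKM with RAD001 and 6.85, 4.53 and 5.15 FPKM with GDC0941. DMSO libraries held 7.16, 8.07 and 8.53 FPKM. PD325901 libraries were all lowest, at a mean that was 16.4% of that of DMSO, and RAD001 replicate 1 was inside the DMSO range. Its changes were -1.96 ± 0.17 SE (limma adjusted p = 1.10e-05) with PD325901, -0.51 ± 0.17 SE (limma adjusted p = 0.0429) with RAD001 and -0.47 ± 0.17 SE (limma adjusted p = 0.0709) with GDC0941. Leaving out replicate 1 of every group, they were -1.95, -0.77 and -0.67, all called (limma adjusted p = 1.06e-06, 0.000227 and 0.000570). The RAD001 call ended without DMSO replicate 1, 2 or 3 or RAD001 replicate 2 or 3 (limma adjusted p = 0.0531, 0.108, 0.128, 0.143 and 0.155) and with a pseudocount of 0.1 FPKM (-0.59, limma adjusted p = 0.0526). Ctps2 stood at 12.4, 11.5 and 11.4 FPKM with PD325901, 7.02, 8.65 and 9.37 FPKM with RAD001 and 12.3, 11.3 and 11.9 FPKM with GDC0941. DMSO libraries held 8.81, 10.1 and 9.84 FPKM. The PD325901 and GDC0941 libraries were all above DMSO and the RAD001 libraries overlapped it, with changes of 0.27 ± 0.10 SE (limma adjusted p = 0.04), 0.28 ± 0.10 SE (limma adjusted p = 0.0616) and -0.18 ± 0.10 SE (limma adjusted p = 0.181) in that order. The call with PD325901 ended whichever 1 of the 6 libraries of the comparison was left out (limma adjusted p = 0.0564 to 0.131), and without replicate 1 of every group (0.19, limma adjusted p = 0.0721).

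Deoxynucleotide genes were called with every inhibitor: 6 of 8 were lower with PD325901, 6 with RAD001 and 4 with GDC0941, and Samhd1 was higher with PD325901. These lower shares of 75%, 75% and 50% stood against 28.2%, 15.9% and 12.7% of all genes. The 12.5% higher with PD325901 lay below the 18.4% of all genes. Rrm1, the large subunit of ribonucleotide reductase, stood at 5.4, 6.35 and 6.41 FPKM with PD325901, 6.65, 3.54 and 3.42 FPKM with RAD001 and 11.2, 4.48 and 4.61 FPKM with GDC0941. DMSO libraries held 18.6, 20.3 and 20.4 FPKM. All inhibitor libraries were below all DMSO libraries, and replicate 1 was the highest of its group with RAD001 and GDC0941. Its changes were -1.56 ± 0.28 SE (limma adjusted p = 0.00112), -1.95 ± 0.28 SE (limma adjusted p = 0.000584) and -1.52 ± 0.28 SE (limma adjusted p = 0.00325) with PD325901, RAD001 and GDC0941. Rrm2, the small subunit whose RNA peaks in S phase, stood at 8.93, 8.34 and 9.76 FPKM with PD325901, 10.6, 3.88 and 3.25 FPKM with RAD001 and 15.6, 4.06 and 4.25 FPKM with GDC0941. DMSO libraries held 36.3, 35 and 34.2 FPKM. The pattern was as for Rrm1, with replicate 1 of GDC0941 far above replicates 2 and 3. Its changes were -1.86 ± 0.44 SE (limma adjusted p = 0.00492), -2.54 ± 0.44 SE (limma adjusted p = 0.00148) and -2.25 ± 0.44 SE (limma adjusted p = 0.00394) in the same order. Rrm2b, the small subunit used outside S phase and induced by p53, stood at 3.14, 3.06 and 3.63 FPKM with PD325901, 3.02, 4.33 and 3.71 FPKM with RAD001 and 3.18, 4.46 and 3.18 FPKM with GDC0941. DMSO libraries held 3.15, 3.17 and 4.34 FPKM. All 4 groups overlapped, and none of its changes of -0.08, 0.04 and 0.01 was called (limma adjusted p = 0.671, 0.854 and 0.958).

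Without replicate 1 of every group, PD325901 libraries held more Rrm1 and Rrm2 RNA than those of the other inhibitors. The PD325901 difference from RAD001 was then 0.72 for Rrm1 and 1.14 for Rrm2 (limma adjusted p = 6.14e-05 and 1.72e-05), and from GDC0941 it was 0.41 and 0.96 (limma adjusted p = 0.00175 and 4.71e-05). With all libraries these differences were 0.39 and 0.69 from RAD001 and -0.04 and 0.39 from GDC0941, and none was called (limma adjusted p = 0.273, 0.214, 0.928 and 0.477). The summed S phase genes given above moved with replicate 1 in the same libraries, and their part in these values was not tested.

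Tyms, the thymidylate synthase gene, stood at 3.28, 3.64 and 3.41 FPKM with PD325901, 3.9, 3.7 and 4.04 FPKM with RAD001 and 4.51, 3.14 and 3.62 FPKM with GDC0941. DMSO libraries held 6.04, 6.98 and 6.28 FPKM. All inhibitor libraries were below DMSO, PD325901 libraries were all below RAD001 libraries, and GDC0941 libraries overlapped both, with changes of -0.74 ± 0.11 SE (limma adjusted p = 0.000259), -0.61 ± 0.11 SE (limma adjusted p = 0.00172) and -0.65 ± 0.11 SE (limma adjusted p = 0.00169) with PD325901, RAD001 and GDC0941. Dut, whose product removes dUTP and supplies dUMP, stood at 3.59, 4.2 and 3.9 FPKM with PD325901, 6.22, 2.96 and 2.51 FPKM with RAD001 and 6.97, 3.19 and 3.37 FPKM with GDC0941. DMSO libraries held 11.2, 14.5 and 14.1 FPKM. It was lower with each inhibitor without overlap, by -1.54 ± 0.28 SE (limma adjusted p = 0.00110), -1.61 ± 0.28 SE (limma adjusted p = 0.00157) and -1.43 ± 0.28 SE (limma adjusted p = 0.00412). Dtymk, the thymidylate kinase gene, lay at 19.7 to 25.4 FPKM with PD325901, 22.2 to 34.1 FPKM with RAD001, 26.2 to 38.6 FPKM with GDC0941 and 38.9 to 47.2 FPKM with DMSO and was called with PD325901 (-0.90 ± 0.18 SE (limma adjusted p = 0.00180)) and RAD001 (-0.73 ± 0.18 SE (limma adjusted p = 0.00993)) but not with GDC0941 (-0.42 ± 0.18 SE (limma adjusted p = 0.107)). In the absence of replicate 1 of every group it was also lower with GDC0941 (-0.63, limma adjusted p = 0.00580).

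Dctd, the dCMP deaminase gene that feeds dUMP to thymidylate synthase, was the least abundant of the 37 genes. It stood at 0.311, 0.279 and 0.0606 FPKM with PD325901, 0.998, 0.9 and 0.836 FPKM with RAD001 and 1.59, 1.75 and 1.98 FPKM with GDC0941. DMSO libraries held 1.38, 1.78 and 1.87 FPKM. PD325901 libraries were lowest, RAD001 libraries lay between them and DMSO, and GDC0941 libraries overlapped DMSO. The changes were -1.14 ± 0.12 SE (limma adjusted p = 3.41e-05), -0.48 ± 0.12 SE (limma adjusted p = 0.0112) and 0.05 ± 0.12 SE (limma adjusted p = 0.785) with PD325901, RAD001 and GDC0941. At such low levels the size depends on the pseudocount: with 0.1 FPKM the PD325901 change was -2.59 and with 5 FPKM it was -0.36, and both were called (limma adjusted p = 0.000102 and 6.23e-05). The RAD001 call ended with 0.1 FPKM (-0.80, limma adjusted p = 0.0825), under quantile normalization (-0.31, limma adjusted p = 0.0811) and without DMSO replicate 3 (limma adjusted p = 0.0520).

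Samhd1 encodes a triphosphatase that breaks deoxynucleoside triphosphates down, and with PD325901, though not with RAD001 or GDC0941, it moved the other way from most deoxynucleotide genes. It stood at 177, 208 and 212 FPKM with PD325901, 67.7, 123 and 124 FPKM with RAD001 and 60.2, 81.5 and 78.8 FPKM with GDC0941. DMSO libraries held 89.9, 136 and 134 FPKM. PD325901 libraries were all above every other library, replicate 1 was the lowest of each group, and GDC0941 libraries were all below DMSO. The changes were 0.74 ± 0.23 SE (limma adjusted p = 0.0221), -0.22 ± 0.23 SE (limma adjusted p = 0.495) and -0.69 ± 0.23 SE (limma adjusted p = 0.0527) with PD325901, RAD001 and GDC0941, and PD325901 differed from RAD001 by 0.96 ± 0.23 SE (limma adjusted p = 0.00513) and from GDC0941 by 1.43 ± 0.23 SE (limma adjusted p = 0.000397). The call with PD325901 ended without DMSO replicate 1 or PD325901 replicate 2 or 3 (limma adjusted p = 0.0888, 0.0638 and 0.0669). When replicate 1 of every group was left out, the changes were 0.63 with PD325901 and -0.75 with GDC0941, both called (limma adjusted p = 2.63e-05 and 1.19e-05).

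**Figure D3:**
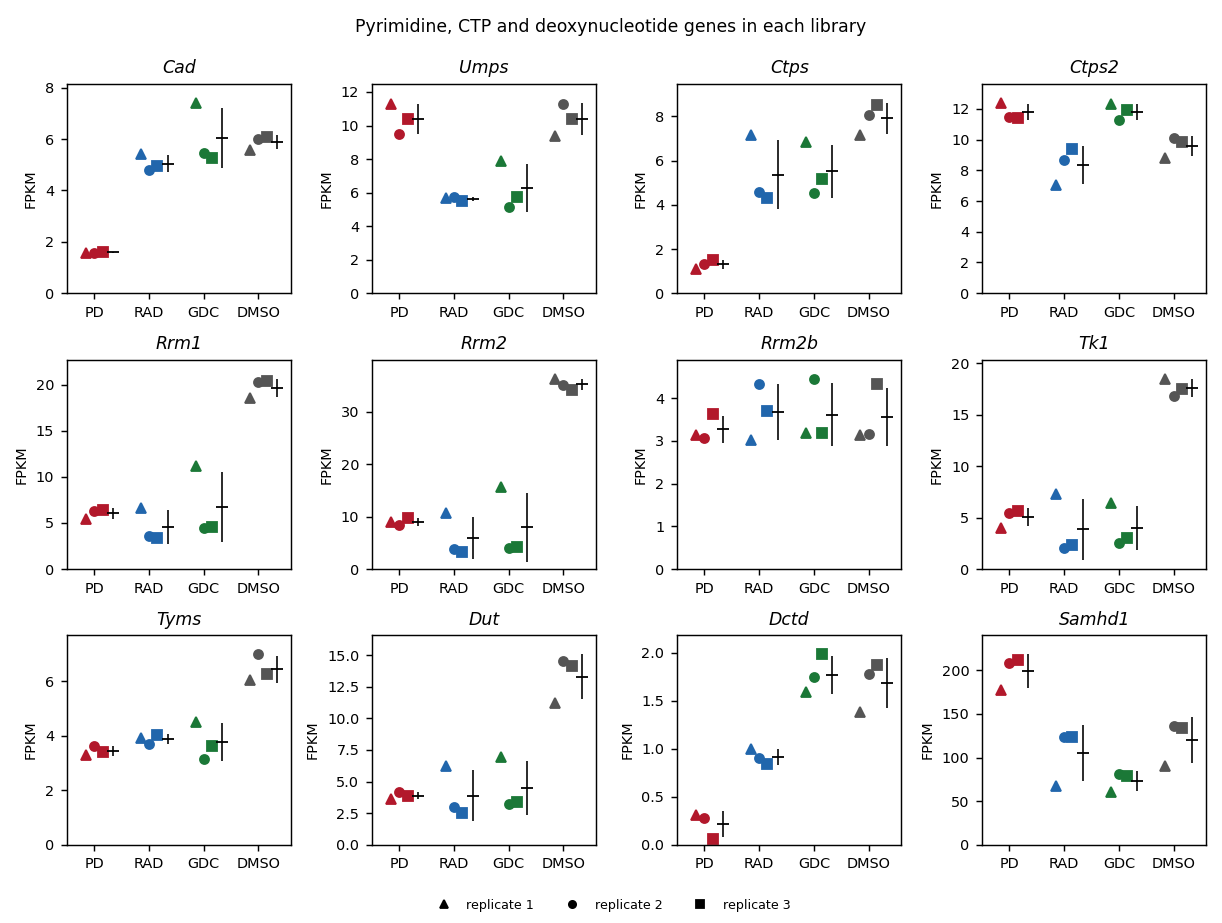
FPKM of 12 pyrimidine, CTP, deoxynucleotide and thymidine kinase genes in each library (vertical axes start at 0), with groups left to right PD325901, RAD001, GDC0941 and DMSO, symbols for the replicate number, and a tick with a bar for the mean ± SD of 3 libraries. PD325901 libraries are lowest for Cad but overlap those of DMSO for Umps, replicate 1 (triangles) is the highest RAD001 and GDC0941 library for Rrm1, Rrm2, Tk1 and Dut, and Samhd1 is highest with PD325901.

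Among 8 salvage genes, 5 were lower and 1 higher with PD325901, 3 were lower with RAD001 and 2 with GDC0941. These lower shares of 62.5%, 37.5% and 25% stood against 28.2%, 15.9% and 12.7% of all genes. The 12.5% higher with PD325901 lay below the 18.4% of all genes. Tk1, the thymidine kinase of S phase, stood at 4.01, 5.4 and 5.66 FPKM with PD325901, 7.29, 2.01 and 2.31 FPKM with RAD001 and 6.44, 2.49 and 3 FPKM with GDC0941. DMSO libraries held 18.5, 16.8 and 17.5 FPKM. All inhibitor libraries were below DMSO, and replicate 1 of RAD001 and GDC0941 was above its group's other 2 libraries. Tk1 changed by -1.64 ± 0.36 SE (limma adjusted p = 0.00327), -2.10 ± 0.36 SE (limma adjusted p = 0.00143) and -1.99 ± 0.36 SE (limma adjusted p = 0.00272) with PD325901, RAD001 and GDC0941. Without replicate 1 of every group, PD325901 libraries exceeded those of RAD001 by 1.05 and of GDC0941 by 0.81 (limma adjusted p = 2.64e-05 and 0.000130), against 0.46 and 0.35, uncalled, with all libraries (limma adjusted p = 0.312 and 0.445). Tk2, the mitochondrial thymidine kinase, stood at 21.3, 19.9 and 16.7 FPKM with PD325901, 15.7, 14.8 and 15.1 FPKM with RAD001 and 14.9, 15.6 and 20.7 FPKM with GDC0941. DMSO libraries held 15.6, 13.1 and 12.9 FPKM. PD325901 libraries were above DMSO without overlap, with a change of 0.45 ± 0.13 SE (limma adjusted p = 0.0142), and the changes of 0.13 and 0.27 with RAD001 and GDC0941 were not called (limma adjusted p = 0.469 and 0.148). The PD325901 call ended without DMSO replicate 3 or PD325901 replicate 1 (limma adjusted p = 0.0538 and 0.0553). Leaving out replicate 1 of every group, Tk2 was higher with GDC0941 (0.44, limma adjusted p = 0.0234).

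Dck, the deoxycytidine kinase that also activates cytarabine, stood at 25.6, 27.2 and 30.3 FPKM with PD325901, 14.1, 26.8 and 26.1 FPKM with RAD001 and 20.4, 16.9 and 16.9 FPKM with GDC0941. DMSO libraries held 32.4, 29.8 and 30.5 FPKM. GDC0941 libraries were all below DMSO, RAD001 replicate 1 stood far below replicates 2 and 3, and PD325901 libraries overlapped DMSO. Its changes were -0.16 ± 0.19 SE (limma adjusted p = 0.537), -0.51 ± 0.19 SE (limma adjusted p = 0.0676) and -0.75 ± 0.19 SE (limma adjusted p = 0.0161) with PD325901, RAD001 and GDC0941, and the GDC0941 call ended without GDC0941 replicate 2 or 3 (limma adjusted p = 0.0542 and 0.0550). With replicate 1 of every group left out, the RAD001 value was -0.19 and that of GDC0941 -0.80 (limma adjusted p = 0.0657 and 3.43e-05).

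Hprt, which returns hypoxanthine and guanine to the pool, stood at 86.2, 68.9 and 77.4 FPKM with PD325901, 87.1, 75.3 and 73.6 FPKM with RAD001 and 112, 97.4 and 109 FPKM with GDC0941. DMSO libraries held 96.4, 115 and 108 FPKM. PD325901 and RAD001 libraries were below DMSO and GDC0941 libraries overlapped it, with changes of -0.46 ± 0.11 SE (limma adjusted p = 0.00462), -0.43 ± 0.11 SE (limma adjusted p = 0.01) and -0.00 ± 0.11 SE (limma adjusted p = 0.983). Aprt, the adenine counterpart, lay at 261 to 288 FPKM with PD325901, 329 to 363 FPKM with RAD001, 364 to 453 FPKM with GDC0941 and 320 to 368 FPKM with DMSO. It was lower with PD325901 (-0.36 ± 0.09 SE (limma adjusted p = 0.00911)) and uncalled with RAD001 (-0.00, limma adjusted p = 0.985) and GDC0941 (0.23, limma adjusted p = 0.102). Under quantile normalization the RAD001 value of Aprt was -0.22 and was called (limma adjusted p = 0.0495). Adk, the adenosine kinase gene, lay at 12.7 to 14.2 FPKM with PD325901, 13.6 to 17.9 FPKM with RAD001, 17.9 to 29.7 FPKM with GDC0941 and 21.8 to 22.5 FPKM with DMSO and changed by -0.67 ± 0.16 SE (limma adjusted p = 0.00474) with PD325901 and -0.46 ± 0.16 SE (limma adjusted p = 0.0437) with RAD001. The RAD001 call of Adk ended when any 1 of the libraries DMSO 1, 2 and 3 and RAD001 2 and 3 was left out (limma adjusted p = 0.0798, 0.101, 0.109, 0.0893 and 0.156).

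The uridine and cytidine kinases differed. Uck2, the form often raised in tumour cells, lay at 8.41 to 14.4 FPKM with PD325901, 13.6 to 14.3 FPKM with RAD001, 13.8 to 20.9 FPKM with GDC0941 and 16 to 23.5 FPKM with DMSO and changed by -0.72 ± 0.21 SE (limma adjusted p = 0.0167) with PD325901, a call that ended without DMSO replicate 2 or 3 or PD325901 replicate 1 (limma adjusted p = 0.0625, 0.0605 and 0.0612). With RAD001 it read -0.53 ± 0.21 SE (limma adjusted p = 0.0800), which passed with the replicate number as a block (limma adjusted p = 0.00980) and without replicate 1 of every group (-0.70, limma adjusted p = 5.60e-05). Uck1 lay at 9.71 to 11.1 FPKM with PD325901, 9.33 to 10.7 FPKM with RAD001, 9.83 to 11.6 FPKM with GDC0941 and 9.83 to 10.7 FPKM with DMSO, and its changes of -0.02, -0.04 and 0.03 were not called (limma adjusted p = 0.887, 0.737 and 0.865).

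Nucleoside diphosphate kinases convert diphosphates of all nucleotides into triphosphates, and Nme1 and Nme2 were among the most abundant of the 37 genes. Nme1 stood at 56.3, 45.4 and 46.5 FPKM with PD325901, 129, 92.8 and 85.8 FPKM with RAD001 and 135, 99.3 and 117 FPKM with GDC0941. DMSO libraries held 79.5, 101 and 98.9 FPKM. PD325901 libraries were below all others, and the remaining groups overlapped, with changes of -0.90 ± 0.17 SE (limma adjusted p = 0.00117), 0.12 ± 0.17 SE (limma adjusted p = 0.603) and 0.32 ± 0.17 SE (limma adjusted p = 0.184) with PD325901, RAD001 and GDC0941. Nme2 stood at 359, 336 and 357 FPKM with PD325901, 581, 523 and 471 FPKM with RAD001 and 652, 582 and 620 FPKM with GDC0941. DMSO libraries held 482, 548 and 553 FPKM. PD325901 libraries were again lowest and GDC0941 libraries were all above DMSO, with a change of -0.59 ± 0.09 SE (limma adjusted p = 0.000533) with PD325901 and uncalled changes of -0.01 with RAD001 and 0.23 with GDC0941 (limma adjusted p = 0.949 and 0.103). Under quantile normalization the RAD001 value of Nme2 was -0.30 (limma adjusted p = 0.0159). The 2 genes are neighbours and close copies, so the split of reads between them is uncertain. Cmpk1, the UMP and CMP kinase gene, lay at 66.5 to 79.5 FPKM with PD325901, 68.2 to 75.8 FPKM with RAD001, 77.7 to 90.8 FPKM with GDC0941 and 66.6 to 81.8 FPKM with DMSO and was not called with any inhibitor (limma adjusted p = 0.678, 0.622 and 0.260).

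The ratio of paired enzymes of the same step within a library is given as a description. The ratio of Ctps to Ctps2 was 0.087, 0.114 and 0.131 with PD325901, 1.02, 0.531 and 0.462 with RAD001, 0.558, 0.402 and 0.433 with GDC0941, and 0.812, 0.802 and 0.866 with DMSO. All PD325901 values were below the rest. For Rrm2 to Rrm2b it was 2.85, 2.73 and 2.69 with PD325901, 3.5, 0.897 and 0.877 with RAD001, 4.89, 0.91 and 1.34 with GDC0941, and 11.5, 11 and 7.88 with DMSO, so that DMSO stood above every inhibitor library. The Tk1 to Tk2 ratio averaged 0.266 ± 0.0749 with PD325901, 0.251 ± 0.185 with RAD001, 0.245 ± 0.161 with GDC0941 and 1.28 ± 0.0866 with DMSO (SD, n = 3 each). Impdh1 to Impdh2 averaged 0.181 ± 0.0298, 0.409 ± 0.029, 0.315 ± 0.0321 and 0.385 ± 0.123 (SD, n = 3 each) in the same order of groups, and Prps1 to Prps2 averaged 0.849 ± 0.104, 1.46 ± 0.0654, 1.35 ± 0.331 and 1.58 ± 0.0625 (SD, n = 3 each). A ratio does not show which of the 2 genes moved, and the ratios were not tested.

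**Figure D4:**
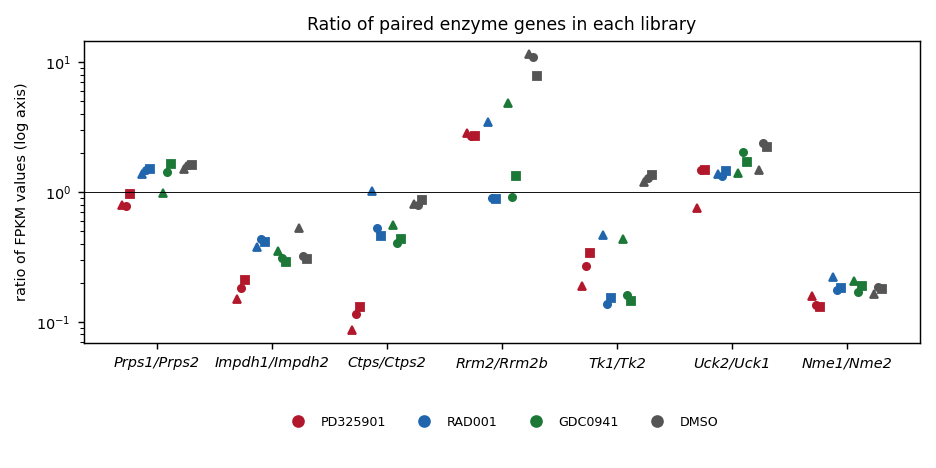
Ratio of the FPKM values of 7 gene pairs in each library on a log axis, with groups left to right PD325901, RAD001, GDC0941 and DMSO and symbols for replicates 1 (triangle), 2 (circle) and 3 (square). The Ctps to Ctps2 ratio is at most 0.131 with PD325901 and at least 0.402 elsewhere, and the Rrm2 to Rrm2b and Tk1 to Tk2 ratios of all inhibitor libraries lie below those of DMSO.

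Set against each other, the inhibitors differed most between PD325901 and GDC0941. PD325901 was lower than GDC0941 in 20 genes and higher in 3 (background 30.7% and 20.9%), with a median difference of -0.46 against -0.07 over all genes. The 3 higher genes were Umps, Samhd1 and Dck, and the Dck difference of 0.59 ended without GDC0941 replicate 2 or 3 or PD325901 replicate 2 or 3 (limma adjusted p = 0.0668, 0.0670, 0.0527 and 0.0779). PD325901 was lower than RAD001 in 15 genes and higher in 3 (background 29.4% and 20.8%), with a median of -0.19 against -0.06. Those 3 were Umps, Ctps2 and Samhd1. These differences included Impdh1 (-1.65 ± 0.20 SE (limma adjusted p = 4.36e-05) against RAD001 and -1.47 ± 0.20 SE (limma adjusted p = 0.0001) against GDC0941), Ctps (-1.45 and -1.49), Atic and Cad. Under quantile normalization the PD325901 difference from RAD001 was no longer called for Nme2 (-0.20, limma adjusted p = 0.0602) and Aprt (-0.05, limma adjusted p = 0.601).

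GDC0941 was higher than RAD001 in 5 genes, Ppat, Paics, Ctps2, Dctd and Hprt, and lower in 0 (background 8.09% and 9.35%), with a median difference of 0.21 against 0.02. At an unadjusted limma p under 0.05, 11 genes were higher and 0 lower. The share of all genes at that threshold is not given here, so those counts have no background. With the replicate number as a block 6 genes were higher, Adk being added (0.44, limma adjusted p = 0.0447 against 0.0721 without the block), and 1 gene, Samhd1, was lower (limma adjusted p = 0.0177). The differences were 0.44 ± 0.13 SE (limma adjusted p = 0.0430) for Ppat, 0.44 ± 0.11 SE (limma adjusted p = 0.0239) for Paics, 0.46 ± 0.10 SE (limma adjusted p = 0.00983) for Ctps2, 0.54 ± 0.12 SE (limma adjusted p = 0.0123) for Dctd and 0.43 ± 0.11 SE (limma adjusted p = 0.0189) for Hprt. Each of these calls ended in at least 1 alternative setting, and between 2 and 6 genes were higher when 1 library was left out, with 2 without GDC0941 replicate 1, RAD001 replicate 2 or RAD001 replicate 3.

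Leaving out replicate 1 of every group also changed the counts. With GDC0941, lower genes against DMSO then numbered 15 in place of 7, the additional ones being Impdh1, Impdh2, Gmps, Adssl1, Dhodh, Ctps, Dtymk and Samhd1, described above, and leaving out only GDC0941 replicate 1 gave 12. Without replicate 1 of every group PD325901 was higher than RAD001 in 7 genes, with Rrm1, Rrm2, Tk1 and Dut added (Dut 0.44, limma adjusted p = 0.00372), and higher than GDC0941 in 6, with Rrm1, Rrm2 and Tk1 added. PD325901 was then also lower than GDC0941 for Adssl1, Cmpk1 and Uck2 (-0.23, -0.28 and -0.47, limma adjusted p = 0.0183, 0.0192 and 0.000400). GDC0941 was higher than RAD001 in 12 genes, with Gart, Adss, Rrm1, Nme1, Nme2, Uck2 and Adk added (differences of 0.18 to 0.51, limma adjusted p = 0.000642 to 0.0494), and lower in 2, Dck and Samhd1 (both -0.62, limma adjusted p = 0.000281 and 6.63e-05). Without DMSO replicate 3 or 2, 10 or 11 genes were lower with RAD001 in place of 18. With 2 libraries in a group, its spread was assumed to be like that of the others. More of all genes were also called lower with GDC0941 without replicate 1 of every group, as counted further below. The share of all genes is not given here for the counts between inhibitors with libraries left out, so they have no background.

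The supply of one-carbon units, which purine and thymine synthesis consume, was followed with 19 folate genes, of which 13 reached 1 FPKM. With PD325901 8 were lower and 1 higher, with RAD001 7 and 2, and with GDC0941 4 and 4. The lower shares were 61.5%, 53.8% and 30.8%, against 28.2%, 15.9% and 12.7% of all genes. The higher shares were 7.69%, 15.4% and 30.8%, against 18.4%, 15.4% and 11.6%. Shmt2, the mitochondrial serine hydroxymethyltransferase, stood at 14.1, 15 and 15.4 FPKM with PD325901, 10.8, 10.8 and 10 FPKM with RAD001 and 20.4, 13.9 and 14.5 FPKM with GDC0941. DMSO libraries held 41.3, 44.6 and 43.4 FPKM. All inhibitor libraries were below DMSO, with changes of -1.48 ± 0.12 SE (limma adjusted p = 6.17e-06), -1.93 ± 0.12 SE (limma adjusted p = 3.21e-06) and -1.37 ± 0.12 SE (limma adjusted p = 5.23e-05). Mthfd1l, which releases formate from mitochondria, was also lower with each, by -1.22, -1.07 and -0.76 (limma adjusted p = 1.05e-05, 6.98e-05 and 0.000692). Fpgs, which retains folates in cells, changed by -1.0 ± 0.11 SE (limma adjusted p = 5.34e-05), 0.24 ± 0.11 SE (limma adjusted p = 0.134) and 0.36 ± 0.11 SE (limma adjusted p = 0.0393) with PD325901, RAD001 and GDC0941.

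Among 21 further kinase and salvage genes, 15 of which reached 1 FPKM, 4 were lower and 2 higher with PD325901, 4 were lower with RAD001, and 3 were lower and 1 higher with GDC0941. The PD325901 shares of 26.7% lower and 13.3% higher were near those of all genes, 28.2% and 18.4%. With RAD001 26.7% were lower, against 15.9% of all genes. With GDC0941 20% were lower and 6.67% higher, against 12.7% and 11.6%. Nme4, a mitochondrial relative of Nme1, was lower with each inhibitor, by -1.27, -1.23 and -1.27 (limma adjusted p = 0.00458, 0.00889 and 0.00975). Cmpk2, a mitochondrial kinase known as interferon-induced, averaged 13.9 ± 1.15 FPKM with PD325901, 7.87 ± 3.95 with RAD001, 2.95 ± 0.558 with GDC0941 and 14.8 ± 1.68 with DMSO (SD, n = 3 each), and the call was made for GDC0941 (-2.0 ± 0.29 SE (limma adjusted p = 0.000877)) and RAD001 (-0.95 ± 0.29 SE (limma adjusted p = 0.0297)). Ak3, the mitochondrial adenylate kinase that uses GTP, was higher with PD325901 (0.59 ± 0.14 SE (limma adjusted p = 0.00466)) and lower with RAD001 (-0.54 ± 0.14 SE (limma adjusted p = 0.0113)). Prps1l3 was lower with PD325901 (-0.54 ± 0.12 SE (limma adjusted p = 0.00305)).

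Of 14 transcription and signalling regulators, 11 reached 1 FPKM, and 7 were lower and 2 higher with PD325901, 4 and 1 with RAD001, and 3 and 1 with GDC0941. The lower shares were 63.6%, 36.4% and 27.3%, against 28.2%, 15.9% and 12.7% of all genes. The higher shares of 18.2%, 9.09% and 9.09% were near or below those of all genes, 18.4%, 15.4% and 11.6%. Whether these factors regulate the 37 genes here was not tested. Myc, a factor that binds the E-box word, stood at 1.2, 1.17 and 0.962 FPKM with PD325901, 32.1, 39.1 and 35.2 FPKM with RAD001 and 35.3, 33.2 and 36.5 FPKM with GDC0941. DMSO libraries held 25.1, 19.5 and 23 FPKM. PD325901 libraries were below, and all RAD001 and GDC0941 libraries above, every DMSO library, with changes of -3.47 ± 0.10 SE (limma adjusted p = 7.41e-09), 0.64 ± 0.10 SE (limma adjusted p = 0.00113) and 0.62 ± 0.10 SE (limma adjusted p = 0.00185). E2f1, a factor of the G1 to S transition, stood at 12.2, 9.97 and 10.7 FPKM with PD325901, 11, 8.2 and 7.63 FPKM with RAD001 and 15, 8.99 and 10.3 FPKM with GDC0941. DMSO libraries held 15.5, 16 and 15.2 FPKM. It was lower with PD325901 (-0.47 ± 0.17 SE (limma adjusted p = 0.0378)) and RAD001 (-0.75 ± 0.17 SE (limma adjusted p = 0.00654)) but not called with GDC0941 (-0.44 ± 0.17 SE (limma adjusted p = 0.0812)). E2f2 was higher with PD325901 (0.56 ± 0.16 SE (limma adjusted p = 0.0136)) and lower with RAD001 (-0.58 ± 0.16 SE (limma adjusted p = 0.0179)) and GDC0941 (-1.32 ± 0.16 SE (limma adjusted p = 0.000328)). E2f3 was lower with PD325901 (-0.94 ± 0.08 SE (limma adjusted p = 6.03e-06)), as was the repressor E2f6 (-0.58 ± 0.07 SE (limma adjusted p = 0.000115)).

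The 21 S phase genes outside the list all had a mean over the libraries of at least 1 FPKM. They were lower in 20 cases with PD325901, 21 with RAD001 and 20 with GDC0941, with median changes of -1.35, -1.56 and -1.28. These shares of 95.2%, 100% and 95.2% stood against 28.2%, 15.9% and 12.7% of all genes. Pcna, the sliding clamp of replication, stood at 101, 90 and 95.4 FPKM with PD325901, 166, 134 and 123 FPKM with RAD001 and 229, 131 and 143 FPKM with GDC0941. DMSO libraries held 222, 255 and 257 FPKM. GDC0941 replicate 1 lay inside the DMSO range and every other inhibitor library below it, with changes of -1.35 ± 0.18 SE (limma adjusted p = 0.000168), -0.80 ± 0.18 SE (limma adjusted p = 0.00690) and -0.58 ± 0.18 SE (limma adjusted p = 0.0379). Rpa2, a subunit of the single-strand binding complex, changed by -1.47, -1.18 and -0.67, Cdc6, the licensing factor, by -1.34, -1.57 and -1.28, and Prim1, the primase subunit, by -1.36, -1.59 and -1.50 with PD325901, RAD001 and GDC0941, all called (limma adjusted p at most 0.0111). The changes of Cdc6 rest on low values, means of 0.981, 0.717 and 1.09 FPKM in the same order against 4.02 FPKM with DMSO. Set beside these S phase genes, the members lower with all 3 inhibitors were Rrm1, Rrm2, Tyms, Dut and Tk1.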

How the data were processed

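The 12 libraries were grouped by their labels. The authors deposited 1 table of FPKM values, 1 column for each library and 1 row for each gene symbol, made with TopHat2 2.0.4 and Cuffdiff on the genome build mm9, per the submitters' processing notes. The sources used here do not name the annotation, the strand setting or any scaling across libraries. Since FPKM values are not counts, no interval from counting could be computed.

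Genes whose mean over the libraries reached 1 FPKM were taken as log2(FPKM + 1) and fitted in R 4.3.3 with limma 3.58.1. The model held 4 group means (8 residual degrees of freedom), a variance trend and Benjamini-Hochberg adjustment in each of 6 comparisons at 0.05. On simulated data with 200 planted genes, changes of 1 were recovered in 86.4%, 81.8% and 89.4% of cases for PD325901, RAD001 and GDC0941 against DMSO, and changes of 0.5 in 44.1%, 48.5% and 64.7%. Every member is named, with values in each library for those the results turn on and ranges for the others; of each other list up to 4 genes with the smallest adjusted p, with Myc and E2f1, are named, except 1 that is not reported here, and no protein sequences were used here. The members, the lists and these rules were chosen with earlier results of these data known.

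Deviations from the group mean correlated between equal replicate numbers above 0.1 in all 3 pairs for PD325901 and RAD001 against DMSO (lowest r 0.183 and 0.201), PD325901 against RAD001 (0.149) and GDC0941 against RAD001 (0.309), but not for GDC0941 against DMSO (0.0354) or PD325901 against GDC0941 (-0.139). The labels name no pairs, so the number was used as a block only as an alternative, printed beside a result where the numbers pair and it changes a call. Other alternatives were the pseudocount, the filter, the scaling, library weights, the variance trend, 2 groups only and libraries left out.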

Additional observations from a re-analysis of the deposited data

How the results depend on the processing

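No called member changed direction in any alternative. Calls of members held in every setting for 27 of 31 with PD325901, 11 of 19 with RAD001 and 7 of 9 with GDC0941 against DMSO, and for 15 of 18 between PD325901 and RAD001, 20 of 23 between PD325901 and GDC0941 and 0 of 5 between GDC0941 and RAD001. Each count changed by over 1.5 times is printed here, and the cause was not tested. With no filter, counts of members were 1 higher for PD325901 against DMSO (otherwise 3), 1 higher for GDC0941 against DMSO (otherwise 2) and 2 higher for GDC0941 against RAD001 (otherwise 5). Calls against DMSO that ended with no filter, not listed with the genes above, follow with their limma adjusted p. They were Ctps2 (0.0674), Uck2 (0.0638) and Samhd1 (0.0814) with PD325901, and Adss (0.0571) and Dck (0.0632) with GDC0941. With RAD001 they were Prps1 (0.0553), Ppat (0.0600), Adssl1 (0.105), Ctps (0.119) and Adk (0.123), which left 13 lower in place of 18. With library weights, counts of members were 2 higher for RAD001 against DMSO (otherwise 1), 15 lower for GDC0941 against DMSO (otherwise 7), 8 higher for PD325901 against RAD001 (otherwise 3), 5 higher for PD325901 against GDC0941 (otherwise 3), 10 higher for GDC0941 against RAD001 (otherwise 5) and 2 lower for GDC0941 against RAD001 (otherwise 0). With 2 groups only, counts of members were 1 higher for GDC0941 against DMSO (otherwise 2) and 1 higher for GDC0941 against RAD001 (otherwise 5). The calls of Pfas and Ctps with RAD001 and of Adss with GDC0941 then ended (limma adjusted p = 0.0512, 0.0630 and 0.0742). With replicate 1 of every group left out, counts of members were 15 lower for GDC0941 against DMSO (otherwise 7), 7 higher for PD325901 against RAD001 (otherwise 3), 6 higher for PD325901 against GDC0941 (otherwise 3), 12 higher for GDC0941 against RAD001 (otherwise 5) and 2 lower for GDC0941 against RAD001 (otherwise 0). With a filter at 5 FPKM, counts of members were 3 higher for GDC0941 against RAD001 (otherwise 5). With quantile normalization, counts of members were 10 higher for GDC0941 against RAD001 (otherwise 5). With the replicate block, counts of members were 1 lower for GDC0941 against RAD001 (otherwise 0). With library weights, counts of all genes were 2973 higher for PD325901 against DMSO (otherwise 1893), 3596 higher for RAD001 against DMSO (otherwise 1586), 3327 lower for RAD001 against DMSO (otherwise 1638) and 2087 lower for GDC0941 against DMSO (otherwise 1309). With replicate 1 of every group left out, counts of all genes were 2491 lower for RAD001 against DMSO (otherwise 1638), 1943 higher for GDC0941 against DMSO (otherwise 1194) and 2378 lower for GDC0941 against DMSO (otherwise 1309). With 2 groups only, counts of all genes were 718 higher for GDC0941 against DMSO (otherwise 1194). With a filter at 5 FPKM, counts of all genes were 814 lower for GDC0941 against DMSO (otherwise 1309). Leaving out 1 library at a time gave 1 to 2 members higher for PD325901 against DMSO (3), 10 to 19 members lower for RAD001 against DMSO (18), 1 to 3 members higher for GDC0941 against DMSO (2) and 706 to 1382 all genes higher for GDC0941 against DMSO (1194). It gave 6 to 12 members lower for GDC0941 against DMSO (7), 3 to 5 members higher for PD325901 against RAD001 (3), 2 to 6 members higher for GDC0941 against RAD001 (5) and 0 to 2 members lower for GDC0941 against RAD001 (0). The replicate block moved no other count of members by that much, and it added calls of Impdh1 (adjusted p = 0.0151), Adssl1 (0.0184) and Samhd1 (0.00185) to the limma result for GDC0941 against DMSO, and of Adssl1 (0.0178) and Uck2 (0.00562) for PD325901 against GDC0941, where the numbers do not pair in all 3 pairs. Quantile normalization shifted the median of all genes by 0.10 with PD325901 and median-ratio scaling by 0.07. The values with a changed sign were all small and none was called at first: library weights (Umps -0.07 with PD325901, Gart -0.11 with RAD001, Nme1 -0.09 with RAD001, Uck1 0.02 with RAD001, Prps2 -0.07 with GDC0941, Cad -0.08 with GDC0941 and Dctd -0.01 with GDC0941), replicate 1 of every group left out (Umps -0.12 with PD325901, Gart -0.13 with RAD001, Adsl -0.01 with RAD001, Nme1 -0.16 with RAD001, Prps2 -0.19 with GDC0941 and Cad -0.14 with GDC0941), quantile normalization (Rrm2b 0.04 with PD325901, Uck1 0.09 with PD325901, Adss -0.02 with RAD001, Nme1 -0.02 with RAD001 and Ppat 0.08 with GDC0941), median-ratio scaling (Cmpk1 0.02 with PD325901 and Uck1 0.05 with PD325901). Of these, the value of Gart with RAD001 under library weights was itself called as lower (limma adjusted p = 0.0477). With 1 library left out, the range was -0.06 to 0.06 for Umps, -0.15 to 0.04 for Rrm2b, -0.14 to 0.01 for Cmpk1 and -0.08 to 0.01 for Uck1 with PD325901. With 1 library left out, the range was -0.08 to 0.07 for Gart, -0.06 to 0.16 for Rrm2b, -0.05 to 0.24 for Nme1, -0.09 to 0.07 for Nme2, -0.09 to 0.00 for Uck1, -0.06 to 0.04 for Aprt and -0.42 to 0.06 for Samhd1 with RAD001. With 1 library left out, the range was -0.15 to 0.18 for Prps2, -0.13 to 0.08 for Ppat, -0.11 to 0.10 for Cad, -0.11 to 0.13 for Rrm2b, -0.03 to 0.11 for Dctd, -0.04 to 0.07 for Uck1, -0.07 to 0.06 for Hprt and -0.23 to 0.12 for Adk with GDC0941. The number of reads behind single values is unknown, so no counting error could be given for low genes such as Dctd and Pfas.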

Other observations

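Nucleotide breakdown genes were called in both directions. Of 24 such genes 16 reached 1 FPKM, and 5 were lower and 1 higher with PD325901, 6 and 3 with RAD001, and 6 and 3 with GDC0941, beside medians of 0.03, -0.29 and -0.13 (all genes: -0.06, 0.00 and 0.02). The shares with PD325901 were 31.2% lower and 6.25% higher, against 28.2% and 18.4% of all genes. With RAD001 they were 37.5% and 18.8%, against 15.9% and 15.4%, and with GDC0941 37.5% and 18.8%, against 12.7% and 11.6%, so the lower share with PD325901 and the higher share with RAD001 were near those of all genes. Nt5e, the cell-surface enzyme CD73 that turns AMP into adenosine, stood at 9.67, 6.42 and 6.87 FPKM with PD325901, 53.9, 58.4 and 62.6 with RAD001, 22.4, 19.1 and 17.1 with GDC0941, and 12.3, 10.5 and 10.7 with DMSO. The 4 groups did not overlap, and its log2 changes were -0.50 with PD325901, 2.29 with RAD001 and 0.75 with GDC0941 (limma adjusted p = 0.0123, 3.17e-06 and 0.00325). Ada, the adenosine deaminase gene, averaged 4.84 ± 1.32 FPKM with PD325901, 1.76 ± 0.255 with RAD001, 1.06 ± 0.233 with GDC0941 and 4.27 ± 0.326 with DMSO (SD, n = 3 each). It was lower with RAD001 (-0.94) and GDC0941 (-1.36) and not called with PD325901 (limma adjusted p = 0.0011, 0.000193 and 0.519). Gda, the guanine deaminase gene, averaged 46.8 ± 6.35, 94.6 ± 7.99, 126 ± 19.7 and 56.5 ± 6.07 FPKM with PD325901, RAD001, GDC0941 and DMSO (SD, n = 3 each). It rose by 0.74 with RAD001 and 1.14 with GDC0941 (limma adjusted p = 0.00221 and 0.000296). Nt5c3l, a cytosolic nucleotidase gene, was lower with PD325901 only among the calls made (-1.43, limma adjusted p = 5.14e-06), at 2, 1.7 and 1.56 FPKM against 5.73, 7.66 and 5.98 FPKM with DMSO.

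Of 8 nucleoside transporter genes 5 reached 1 FPKM, with 3 lower and 1 higher with PD325901, 2 lower with RAD001 and 1 lower with GDC0941. The lower shares were 60%, 40% and 20%, against 28.2%, 15.9% and 12.7% of all genes. The higher share of 20% with PD325901 was near that of all genes, 18.4%. Slc43a3, a purine base carrier, was at 4.14, 5.23 and 4.6 FPKM with PD325901, 4.24, 2.44 and 2.41 with RAD001, 4.86, 2.28 and 1.82 with GDC0941, and 17.9, 10 and 10.7 with DMSO. All inhibitor libraries were below DMSO, with changes of -1.26, -1.77 and -1.83 (limma adjusted p = 0.00388, 0.000976 and 0.0012). Slc28a2 was lower with PD325901 and RAD001 (-0.42 and -0.56, limma adjusted p = 0.0156 and 0.00568) and Slc29a2 with PD325901 (-0.34, limma adjusted p = 0.0313), while Slc29a3, a lysosomal carrier, was higher with PD325901 (0.51, limma adjusted p = 0.0386). Among 8 pool-cleaning genes 6 were in the table and reached 1 FPKM. Nudt5 was lower with PD325901 (-0.94, limma adjusted p = 0.000205) and RAD001 (-0.40, limma adjusted p = 0.0364), and Nudt16 was higher with PD325901 (0.42, limma adjusted p = 0.0111). Itpa and Dctpp1 were lower with RAD001 (-0.32 and -0.49, limma adjusted p = 0.0224 and 0.0235), and limma called 0 of the 6 with GDC0941, where 3 were lower at an unadjusted p under 0.05. In shares, 16.7%, 50% and 0% of the 6 were lower with PD325901, RAD001 and GDC0941, against 28.2%, 15.9% and 12.7% of all genes. The 16.7% higher with PD325901 was near the 18.4% of all genes. The share of all genes at the unadjusted threshold is not given here.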
